A study of Mus musculus with 4 samples.

Results

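The measurements describe barcodes with cone transcripts and far more M opsin than S opsin RNA, in mouse retina. A barcode marks one droplet of a single-cell library, and a UMI (unique molecular identifier) marks one captured RNA molecule. Kept barcodes had 500 or more UMIs, 300 or more genes and a mitochondrial share of 20% or less. The members were chosen by measured values, the UMIs of the 6 genes named in these rules. A barcode passed the cone rule with at least 2 UMIs of Arr3, at least 1 of Gnat2 and at least 10 of Arr3, Gnat2, Pde6h and Pde6c summed. It was M dominated with at least 5 UMIs of Opn1mw and more than 2 times as many UMIs of Opn1mw as of Opn1sw. This left 424 of 19716 kept barcodes (2.15%), out of 21410 in all, and 26.8% of the 1585 barcodes that passed the cone rule. They are called M opsin barcodes below, because their summed level of rod markers lay above that of barcodes chosen as rods.

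The study compared 2 Control with 2 Diabetic libraries of retina, made with the 10x Genomics 3′ v3 chemistry after enrichment of live cells for CD31 (the endothelial surface protein PECAM1) with microbeads. Cones were not the cells selected for. The labels used here give no strain, age, sex, diabetes model, duration or number of animals, and p-values therefore measure the spread between these libraries, which may be technical. The M opsin barcodes numbered 130 in Control 1, 51 in Control 2, 172 in Diabetic 1 and 71 in Diabetic 2, with 4018225, 2620726, 5497838 and 3546986 UMIs. Each pair of libraries shared 5 to 9 barcode sequences, and none of these was an M opsin barcode.

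Cones are the photoreceptors of daylight vision. Light activates an opsin, which drives the cone transducin (Gnat2, Gnb3, Gngt2) and the cone phosphodiesterase (Pde6c, Pde6h), and this closes the cyclic nucleotide-gated channel (Cnga3, Cngb3) until cone arrestin (Arr3) and kinases shut the opsin off. Mice have an M opsin (Opn1mw), tuned to middle wavelengths, and an S opsin (Opn1sw), tuned to short wavelengths. M opsin prevails in the dorsal retina and S opsin in the ventral retina, many cones make both, and the thyroid hormone receptor Thrb is needed for M opsin. Rods, the photoreceptors of dim light, greatly outnumber cones.

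The sequences before the start sites of both opsin genes are shown because the opsin pair decides membership. They are the 250 bases upstream of the RefSeq start, from RefSeq on GRCm38.p6, 5′ to 3′ on the strand of the gene. Capitals mark TATAAA, a core promoter box. They also mark TAATC, part of the site recognised by Crx and Otx2, and each was searched on both strands. Opn1mw lies on the plus strand and its window is chrX:74127216-74127465. Opn1sw lies on the minus strand and its window is chr6:29380514-29380763.
Opn1mw: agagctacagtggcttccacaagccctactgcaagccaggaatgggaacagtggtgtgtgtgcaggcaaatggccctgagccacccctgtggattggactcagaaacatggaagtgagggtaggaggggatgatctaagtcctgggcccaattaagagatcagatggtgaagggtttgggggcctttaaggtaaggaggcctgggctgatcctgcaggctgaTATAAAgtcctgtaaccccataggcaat
Opn1sw: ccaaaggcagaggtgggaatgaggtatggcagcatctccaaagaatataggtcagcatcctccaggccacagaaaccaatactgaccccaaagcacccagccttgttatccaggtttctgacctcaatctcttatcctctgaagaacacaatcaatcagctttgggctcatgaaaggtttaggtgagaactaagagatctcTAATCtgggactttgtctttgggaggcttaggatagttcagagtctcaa
The Opn1mw window held 1 TATAAA and 0 TAATC, and the Opn1sw window held 0 TATAAA and 1 TAATC. Among 32536 distinct windows of the same length, 12.3% held TATAAA and 19.8% held TAATC, so both motifs are common. The motifs do not overlap each other, and a match describes letters only.

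Most M opsin barcodes were deep and rich in rod RNA. Their median depth was 27466 UMIs in Control 1, 49694 in Control 2, 31444.5 in Diabetic 1 and 50427 in Diabetic 2. Barcodes that passed a rod rule (with minimums that include 2 UMIs of Gnat1 and 30 over 7 rod genes, and with no Arr3 or Gnat2) had medians of 3033, 4222, 3613.5 and 4656.5 UMIs. The M opsin barcodes were thus between 8.70 and 11.8 times as deep as the rod-rule barcodes in every library. Of the 424, 301 had at least 20000 UMIs, a depth reached by 3.30% to 10.9% of the rod-rule barcodes per library. Minimums of cone gene UMIs favour deep barcodes, and the absence of Arr3 and Gnat2 favours shallow ones. The depth gap is therefore a description. Of all kept barcodes with at least 20000 UMIs, 34.5% to 66.4% per library passed the cone rule. Gnat1, the rod transducin, stood at 8430, 8854, 7180 and 7185 CPM (counts per 1000000 UMIs) in M opsin barcodes of Control 1, Control 2, Diabetic 1 and Diabetic 2. In rod-rule barcodes, which were chosen with this gene, it stood at 5505, 5823, 5110 and 4472 CPM, and all of these lay below the M opsin values.

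The M opsin barcodes were split by the balance of rod and cone gene UMIs into 365 called rod-rich and 59 called rod-poor below. Levels of rod and cone genes in the subsets are therefore descriptions. The rod-poor barcodes numbered 20, 9, 22 and 8 in Control 1, Control 2, Diabetic 1 and Diabetic 2. Their median depths were 5779.5, 8630, 5103 and 10640 UMIs, and they held 436435 of the 15683775 UMIs of all M opsin barcodes. The summed M opsin values below are therefore mostly values of rod-rich barcodes.

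**Figure D1:**
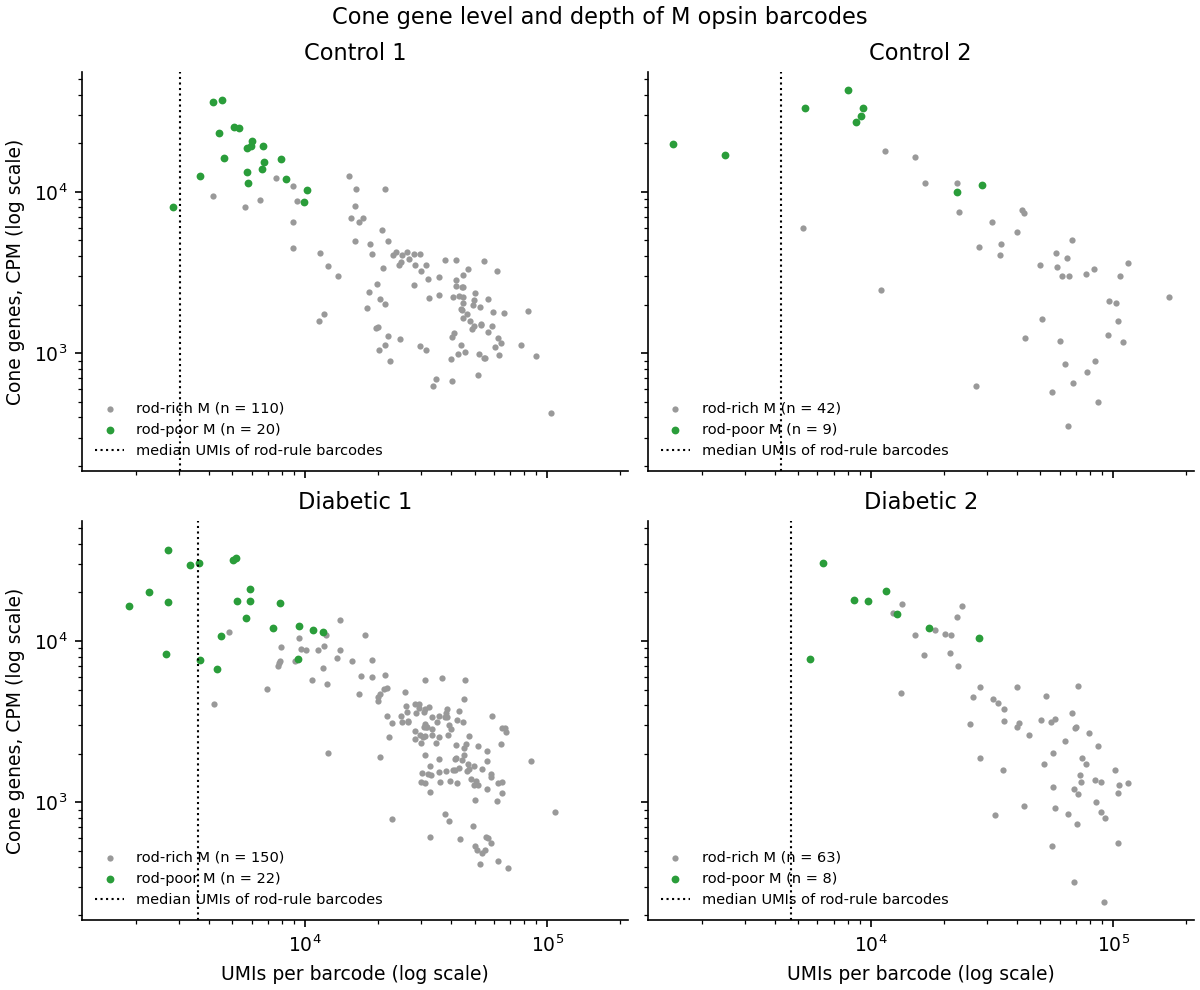
Each point is an M opsin barcode, with its UMIs on the log x axis and its summed Arr3, Gnat2, Pde6h, Pde6c and Opn1mw level in CPM on the log y axis. Rod-poor barcodes (green) lie at the upper left, near the median depth of rod-rule barcodes (dotted line), and rod-rich ones (grey) extend to lower levels at greater depth.

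The level of the cone genes fell with depth within each library. Pearson's r between log UMIs and log cone gene level was −0.82 over the 130 barcodes of Control 1, −0.72 over 51 in Control 2, −0.82 over 172 in Diabetic 1 and −0.82 over 71 in Diabetic 2. This is a description only, since depth is the denominator of the level and the rule sets a minimum number of cone UMIs. Whether several cells or free RNA shared these droplets was not tested. Scrublet, a doublet caller, was set to mark a top share of kept barcodes that grew with their number. It marked 275 of 5868, 48 of 2438, 498 of 7891 and 99 of 3519 in Control 1, Control 2, Diabetic 1 and Diabetic 2. Of these, 11, 0, 16 and 1 were M opsin barcodes. With its own automatic threshold it marked at most 0.613% of kept barcodes in a library, so it cannot be relied on here.

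Cone genes that the rule did not use were present in both subsets, at higher levels in the rod-poor one. Gngt2, a subunit of cone transducin, stood at 4963, 4667, 3273 and 3535 CPM in rod-poor barcodes of Control 1, Control 2, Diabetic 1 and Diabetic 2. In rod-rule barcodes it stood at 39.3 to 72.1 CPM. Gnb3, the partner subunit, stood at 2320, 2229, 1810 and 1627 CPM in rod-poor barcodes and at 111, 92.8, 55.4 and 48.4 CPM in rod-rule barcodes. The channel subunit Cngb3 stood at 424, 314, 339 and 281 CPM in rod-poor barcodes and at no more than 3.27 CPM in rod-rule barcodes. For each of the 3 genes every rod-poor value lay above every rod-rule value. Over all M opsin barcodes the values were lower: Gngt2 stood at 633 to 763 CPM, Gnb3 at 346 to 441 CPM and Cngb3 at 61.7 to 71.7 CPM.

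Rod genes marked the other side. The summed level of 14 rod markers was 69811 to 82512 CPM in M opsin barcodes, 28065 to 32104 CPM in the rod-poor subset and 51579 to 65020 CPM in rod-rule barcodes, with none of the markers at 0. Nrl, the transcription factor that sets rod fate, stood at 565 to 693 CPM in the rod-poor subset and at 1809 to 1998 CPM over all M opsin barcodes. Whether the rod RNA of rod-poor barcodes came from free RNA was not tested.

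Markers of several other cell types were present. Bipolar cell markers (14 genes) summed to 435 to 604 CPM in M opsin barcodes and 469 to 581 CPM in rod-rule barcodes, which overlapped. Endothelial markers (12 genes) summed to 132 to 508 CPM in M opsin barcodes, 2481 to 3277 CPM in rod-rule barcodes and 14365 to 15774 CPM in barcodes with an endothelial rule. Müller glia markers (14 genes) summed to 1641 to 2173 CPM in M opsin barcodes and 3790 to 4755 CPM in rod-rule barcodes. The rod-rule barcodes are thus mixed too, and they held 869 to 2691 CPM of 9 pigment epithelium and blood markers, against 22.1 to 53.5 CPM in M opsin barcodes. Within the rod-poor subset Müller glia markers summed to 2037 and 1978 CPM in Control and to 4454 and 7773 CPM in Diabetic, so the groups did not overlap.

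**Figure D2:**
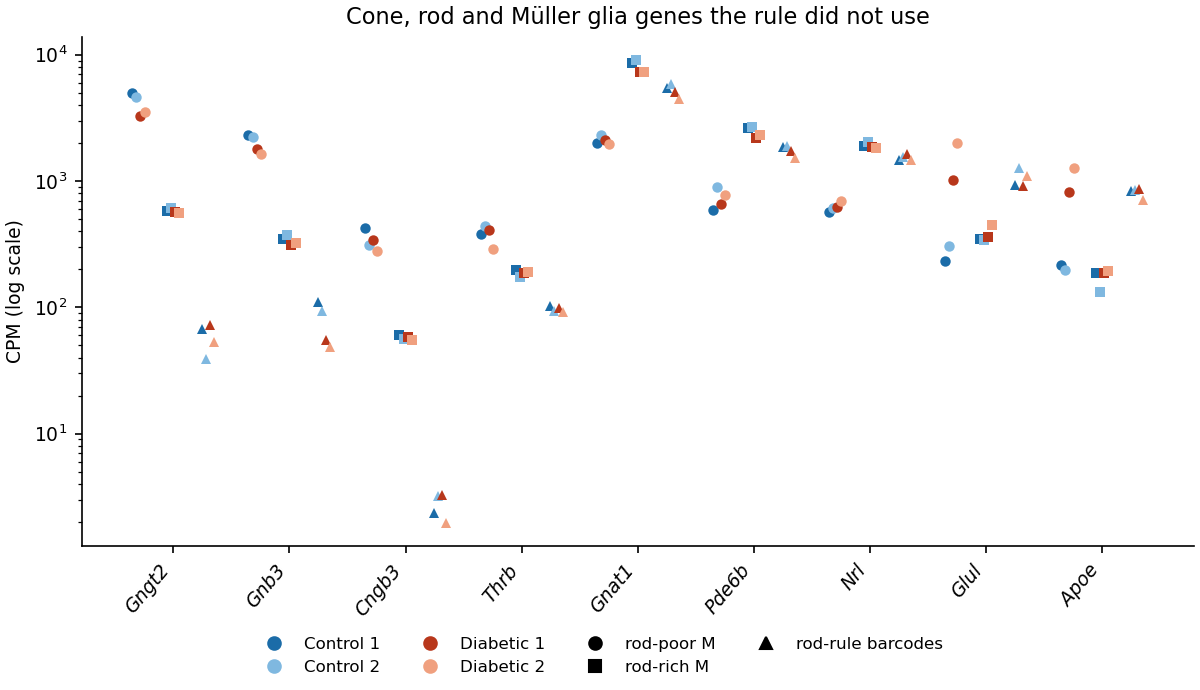
Level in CPM (log y axis) of 4 cone genes (Gngt2 to Thrb), 3 rod genes (Gnat1 to Nrl, which the rod rule used) and 2 Müller glia genes, with 1 point per library for rod-poor M opsin barcodes (circles), rod-rich ones (squares) and rod-rule barcodes (triangles). Gngt2, Gnb3 and Cngb3 are highest in circles and lowest in triangles, and Gnat1, Pde6b and Nrl are highest in squares.

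The opsin values that chose the members are given as a description. Median Opn1mw was 25 UMIs per barcode in Control 1 (range 5 to 103), 53 in Control 2 (5 to 144), 28 in Diabetic 1 (5 to 90) and 42 in Diabetic 2 (7 to 176). Median Opn1sw was 1 UMI in every library, and 150 of the 424 barcodes had none. Just inside the rule, 10 members had 5 or 6 UMIs of Opn1mw and 21 had an opsin ratio between 2 and 3. Just outside it, 21 barcodes with cone genes had 3 or 4 UMIs of Opn1mw and 25 had a ratio between 1.5 and 2.

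The rule keeps Opn1sw low in M opsin barcodes, so its values there are a description. When each barcode was thinned to 1000 UMIs, Opn1sw was seen in 5.38%, 3.92%, 5.81% and 1.41% of M opsin barcodes of Control 1, Control 2, Diabetic 1 and Diabetic 2. The shares in rod-rule barcodes, which should lack it, were 8.56%, 7.94%, 7.57% and 6.49%. Without thinning, the shares were 68.5%, 70.6%, 57.0% and 71.8% in M opsin barcodes and 25.1% to 27.9% in the much shallower rod-rule barcodes. No M opsin barcode was left out by thinning, against 99, 38, 110 and 13 rod-rule barcodes.

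The other barcodes of the cone rule divided into 832 S opsin barcodes (at least 5 UMIs of Opn1sw and more than 2 times as many as of Opn1mw) and 329 that met neither opsin rule. In S opsin barcodes thinned to 1000 UMIs, Opn1mw was seen in 18.7% to 22.8%, against 2.72% to 4.13% of rod-rule barcodes. The share with M opsin RNA in S opsin barcodes stood above the rod-rule share in all 4 libraries. The rules favour this, since S opsin barcodes needed cone gene UMIs and rod-rule barcodes had no Arr3 or Gnat2. It is a description. S opsin barcodes were as deep or deeper, with medians of 31893.5, 61701, 33305 and 58212.5 UMIs.

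**Figure D3:**
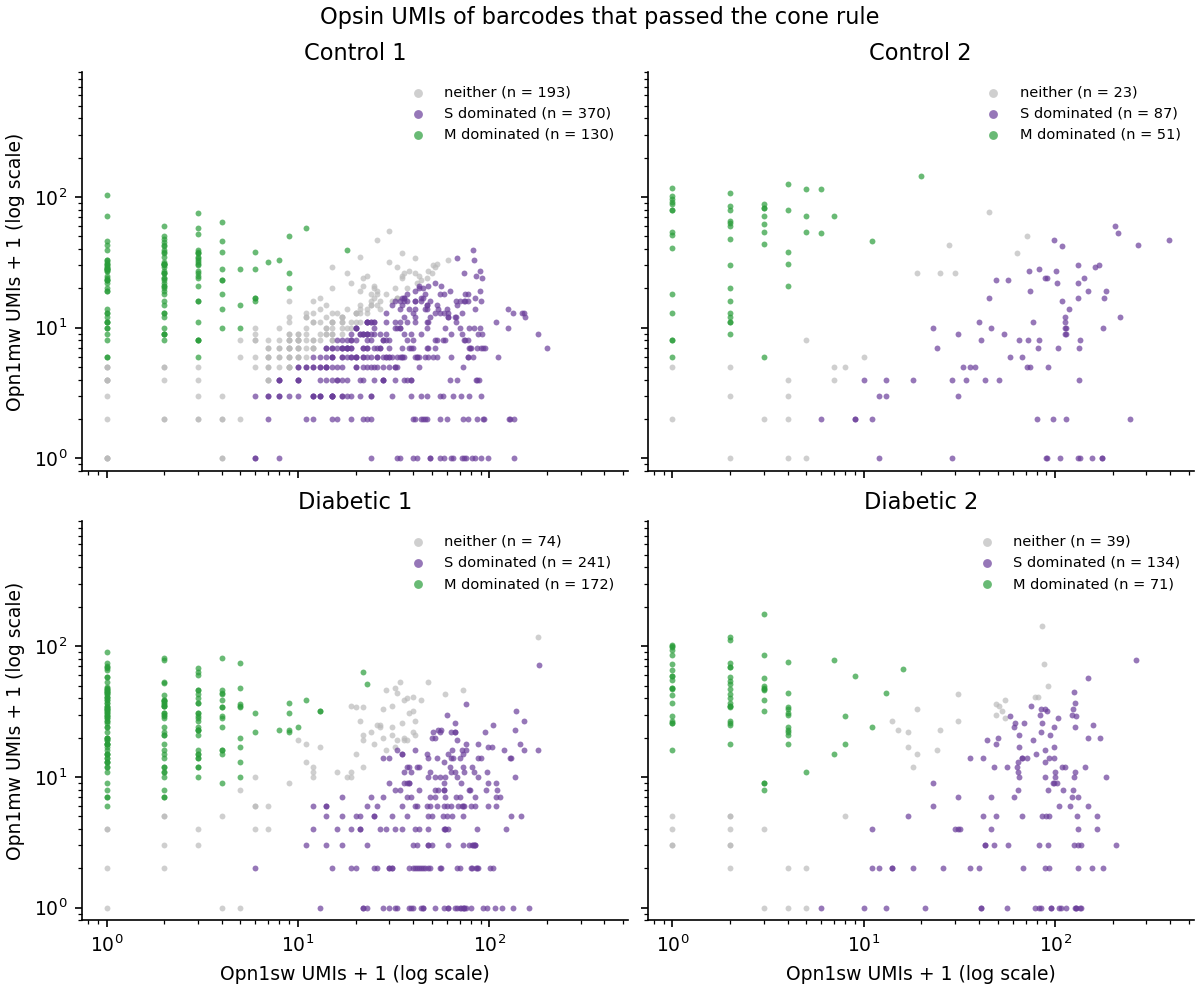
Opn1sw UMIs (x) against Opn1mw UMIs (y), each plus 1 on a log axis, for the 1585 barcodes of the cone rule, 1 panel per library. M opsin barcodes (green) stand at a median of 1 UMI of Opn1sw in every library, and S opsin barcodes (violet) mostly hold some Opn1mw.

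M opsin barcodes made up 18.8% of the cone rule barcodes in Control 1 (130 of 693, exact 95% binomial interval 15.9% to 21.9%), 31.7% in Control 2 (24.6% to 39.5%), 35.3% in Diabetic 1 (31.1% to 39.7%) and 29.1% in Diabetic 2 (23.5% to 35.2%). The intervals cover counting error only. Control 1 was lowest, and Control 2 lay between the Diabetic libraries. The Diabetic mean was 32.2% ± 4.40 (SD, n = 2) and the Control mean 25.2% ± 9.13 (SD, n = 2), a difference of 6.99 percentage points with an exact two-sided permutation p of 0.667 (the smallest p this design allows is 0.333). With barcodes thinned to 1000 UMIs the difference was 1.06 points, but that share is not the same measure. At that depth Opn1mw was seen at all in 57.7% to 64.7% of M opsin barcodes per library. The minimum of 5 UMIs of Opn1mw could therefore not hold there as it did above. A difference was not detectable, and among all kept barcodes the M opsin share was 2.02% to 2.22% in every library.

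Within libraries, M opsin barcodes were separated from S opsin barcodes by genes of dorsal and ventral retina and by a neighbour of the S opsin gene. Ccdc136, Vax2 and Vax2os were lower and Nr2f2 was higher in M opsin barcodes, each in 4 of 4 libraries. Of 12779 genes tested, 241 were higher (1.89%) and 170 were lower (1.33%) in M opsin barcodes, 3.22% in either direction, at an adjusted p under 0.05 in edgeR's quasi-likelihood test with the library as a block. The 6 genes of the rule are not counted. DESeq2 called 72 higher and 39 lower. In the rod-poor subsets, where 2009 genes could be tested, 2 were lower and none higher in M, by edgeR, with 138 at an unadjusted p under 0.05.

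Ccdc136 stood at 24.1, 11.1, 21.5 and 27.6 CPM in M opsin barcodes and at 156, 177, 236 and 240 CPM in S opsin barcodes of Control 1, Control 2, Diabetic 1 and Diabetic 2. All S values were above all M values, and rod-rule barcodes held 18.5 to 24.3 CPM. The log2 fold change was −3.25 ± 0.08 (SE, n = 4 libraries, edgeR adjusted p = 6.7e-35). In rod-poor barcodes the contrast was present too, at 41.6, 10.5, 107 and 10.0 CPM in M and 1029, 1036, 1184 and 1304 CPM in S (log2 −4.62, edgeR adjusted p = 5.6e-08). Ccdc136 lies on mm10 chromosome 6 at 29396309 to 29426994 on the plus strand. It begins 7840 bases beyond the GENCODE span of Opn1sw, 29376671 to 29388468 on the minus strand. The RefSeq start of Opn1sw used for the sequence above lies inside that span, so it is farther from Ccdc136.

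Vax2, a homeobox factor of the ventral retina, stood at 17.2, 11.8, 20.4 and 17.5 CPM in M and at 92.1, 111, 152 and 137 CPM in S opsin barcodes (log2 −2.86 ± 0.08 SE, n = 4, edgeR adjusted p = 2.0e-32). Its antisense transcript Vax2os stood at 175 to 252 CPM in M and 925, 1169, 1364 and 1451 CPM in S opsin barcodes (log2 −2.40 ± 0.06). The M and S values of both genes did not overlap. Rod-rule barcodes lay between them, with 55.2 to 83.8 CPM of Vax2 and 680 to 820 CPM of Vax2os. In the rod-poor subsets Vax2 stood at 8.31, 41.9, 8.26 and 20.1 CPM in M and at 30.6, 0, 61.9 and 55.5 CPM in S, and these overlapped. Between those subsets edgeR did not call Vax2os. The genes share 938 bases on chromosome 6, on opposite strands (Vax2 83711264 to 83738313 plus, Vax2os 83692806 to 83712201 minus), and how the counting assigned reads there is not given in the sources used here.

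Nr2f2, an orphan nuclear receptor of the dorsal retina, went the other way, with 66.4, 61.1, 59.5 and 56.4 CPM in M and 18.0, 5.77, 8.04 and 5.75 CPM in S opsin barcodes (log2 2.58 ± 0.13 SE, n = 4, edgeR adjusted p = 1.2e-21). Rod-rule barcodes held 53.8 to 62.7 CPM, like the M values. In the rod-poor subsets it stood at 91.5, 83.7, 33.1 and 80.3 CPM in M, and in S it was seen in Control 1 only, at 10.2 CPM. Aldh1a1, a retinoic acid synthesis enzyme of the dorsal retina singled out after its values were seen, stood at 16.6 to 20.4 CPM in M and 3.84 to 5.65 CPM in S opsin barcodes (log2 1.90 ± 0.14). Syndig1l, also chosen after its values were seen, stood at 2.54 to 4.0 CPM in M and at 18.2 to 25.7 CPM in S opsin barcodes (log2 −2.83 ± 0.16).

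Other named genes moved less. Higher in M were Gria2, an AMPA receptor subunit, at 75.1 to 118 against 40.1 to 65.5 CPM (log2 0.79 ± 0.06), Ptprn, a dense-core vesicle protein (0.62 ± 0.06), Acbd6 (0.61 ± 0.075), Rd3l (0.50 ± 0.05), Pals2 (0.48 ± 0.05), Lrtm1 (0.445 ± 0.068), Ttll11 (0.44 ± 0.07) and Nav1 (0.42 ± 0.07). Lower in M were Spry2, an inhibitor of receptor tyrosine kinase signalling (−0.57 ± 0.06), Plpp2 (−0.50 ± 0.05), Otx2os1 (−0.44 ± 0.05), Kcne2 (−0.37 ± 0.07) and Hsf2 (−0.365 ± 0.069). For each of these 13 genes the M value lay on the same side of the S value in 4 of 4 libraries. DESeq2 called neither Hsf2 nor Kcne2. In the rod-poor subsets 10 of the 16 called genes named by rule could be tested. The calls of 7 were lost there (Acbd6, Kcne2, Nav1, Otx2os1, Pals2, Ptprn and Vax2os), and 2 changed sign (Lrtm1 and Rd3l). The adjusted p of Hsf2 rose above 0.05 without Control 1 and that of Kcne2 without Diabetic 1.

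**Figure D4:**
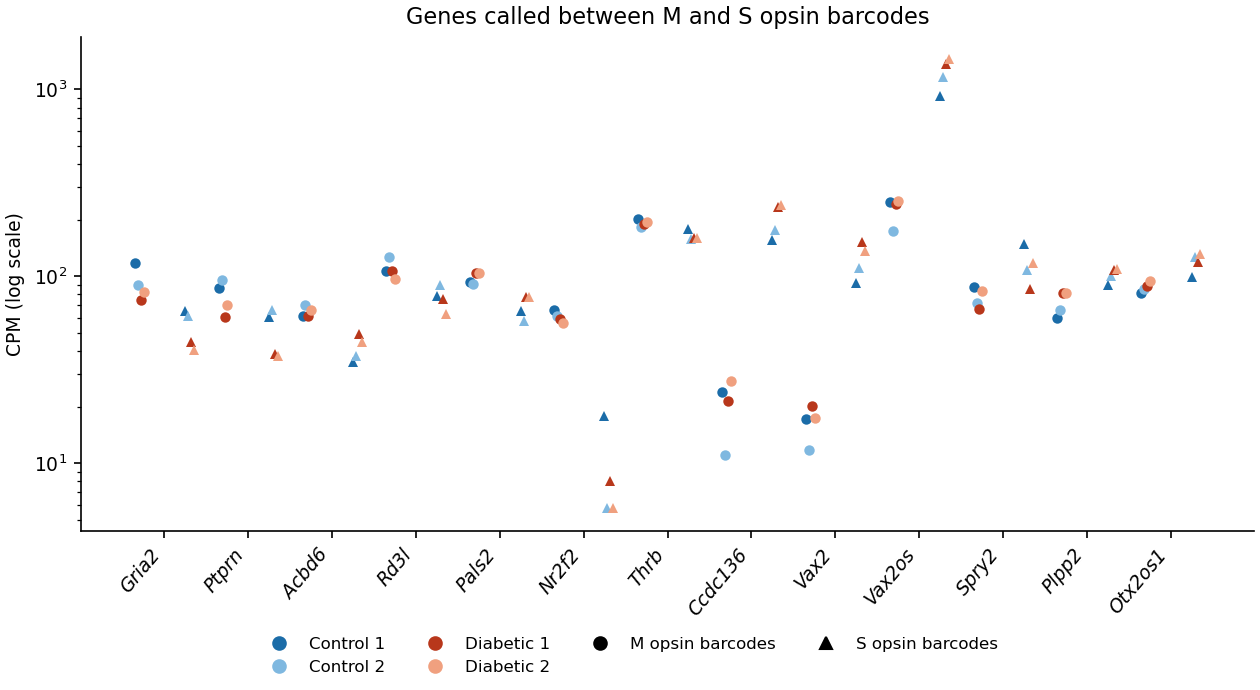
Level in CPM (log y axis) of 13 genes called between M opsin (circles) and S opsin barcodes (triangles), with 1 point per library. Ccdc136, Vax2 and Vax2os are lower and Nr2f2 is higher in circles with no overlap, while Spry2 and other genes differ by less.

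The cone and photoreceptor lists split. Of 19 cone phototransduction genes tested, 2 were higher in M opsin barcodes (Cngb3 at log2 0.235 ± 0.064 and recoverin, Rcvrn, at 0.14 ± 0.03) and 4 were lower (Grk1, Guca1b, Kcnv2 and Rgs9bp, from −0.12 to −0.23). The list's median was −0.04, beside −0.005 over all genes. Of 27 photoreceptor transcription factors, Nr2f2 and Thrb were higher and Vax2, Otx2 and Nr2e3 were lower, with a median of −0.003. Thrb stood at 202, 184, 191 and 194 CPM in M and 179, 159, 159 and 160 CPM in S opsin barcodes (log2 0.22 ± 0.04 SE, n = 4, edgeR adjusted p = 0.00018), and all M values were above all S values. Of the shared subunits, Gngt2 gave log2 0.02 ± 0.04 and Gnb3 −0.06 ± 0.04, neither called. Markers of other cells moved with the contrast. Of 14 rod markers 4 were lower in M (Sag by the most, −0.36 ± 0.03), of 14 Müller glia markers 6 were higher (Dbi by 0.29 ± 0.04), and of 12 endothelial markers 2 were higher (Cldn5 and Kdr). Of 12 bipolar cell markers Car8 and Lrtm1, named above, were higher and Cabp5 was lower, with a median of 0.23. Of 5 pigment epithelium and blood markers the haemoglobin genes Hba-a1 and Hbb-bs were lower, with a median of −0.76. Their part in the M to S differences was not tested.

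Diabetic M opsin barcodes had less mitochondrial ribosomal RNA and more metallothionein Mt1 than Control ones, and 5 of 19 heat shock genes were called lower. Of 12225 genes tested, 83 were higher (0.679%) and 46 lower (0.376%) in Diabetic, at an adjusted p under 0.05 in edgeR's quasi-likelihood test over 2 against 2 libraries. With library totals in place of TMM the split was 139 higher and 32 lower, and DESeq2 called 17 higher and 48 lower, with no adjusted p for 8773 genes. The counts were 38 and 15 without Control 2 and 389 and 288 without Diabetic 2. Libraries of the groups did not overlap for 31.6% of genes with Diabetic above and 16.6% with Diabetic below, so that pattern alone is common. Of 33 called genes named by rule, 19 were no longer called without Control 2, 10 without Control 1, 2 without Diabetic 1 and 0 without Diabetic 2. In rod-poor barcodes, which hold far fewer UMIs, 24 of these named genes could be tested. Of those, 18 were no longer called and 3 changed sign. In bulk sums of barcodes, fewer contributing cells and less RNA per cell cannot be told apart.

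The mitochondrial ribosomal RNAs gave the lowest log2 fold changes among the named genes. mt-Rnr1, the small subunit RNA, stood at 3949 and 2863 CPM in Control 1 and 2 and at 937 and 1439 CPM in Diabetic 1 and 2 (log2 −1.59 ± 0.18 SE, edgeR adjusted p = 0.0028). mt-Rnr2, the large subunit RNA, stood at 9013, 6244, 2104 and 3429 CPM in the same order (log2 −1.535 ± 0.204). Both were named by a rule that requires groups without overlap, and Diabetic 1 was lowest. In the rod-poor subset mt-Rnr1 stood at 14915 and 12912 CPM in Control, against 6256 and 7110 CPM in Diabetic (log2 −1.08, edgeR adjusted p = 0.014). The same contrast gave −1.64 in S opsin barcodes and −1.19 in rod-rule barcodes of the same libraries, and the median mitochondrial share of M opsin barcodes was 3.01% and 2.87% in Control and 1.27% and 1.72% in Diabetic. Of 12 mitochondrial genes for respiratory proteins 1 was called, mt-Nd2 (−0.60 ± 0.12), and all 12 log2 fold changes were negative with a median of −0.506, beside 0 over all genes. Without Control 2 that median was −0.283 and none was called by edgeR (5 at an unadjusted p under 0.05). Without Diabetic 2, 8 were called. In the rod-poor subset mt-Nd2 gave 0.10, and the median over the 8 genes tested was 0.127. Of 73 nuclear genes for respiratory proteins none was called by edgeR, and 2 had an unadjusted p under 0.05.

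Of 19 heat shock genes tested, most of them chaperones that help proteins fold, 5 were called lower in Diabetic and 0 higher. The list's median was −0.373, and 2 of the 19 log2 fold changes were positive. Hspa8, the constitutive HSP70, stood at 396 and 577 CPM in Control, against 284 and 293 CPM in Diabetic (log2 −0.82 ± 0.15 SE, edgeR adjusted p = 0.030), and DESeq2 did not call it. Hsp90ab1 stood at 438 and 383 against 297 and 230 CPM (−0.70 ± 0.13), and Hsph1, named after its values were seen, at 58.7 and 51.9 against 26.4 and 27.3 CPM (−1.12 ± 0.14). Dnaja1 (−0.56 ± 0.11) and Stip1 (−0.55 ± 0.10) were the other members called. The Control and Diabetic values of all 5 did not overlap, which the naming rule had required of Hspa8 and Hsp90ab1. Hsp90aa1 gave −0.48 ± 0.11 with an edgeR adjusted p of 0.055. Called lower were 2 members without Control 2, 3 without Control 1 and 9 without either Diabetic library, and DESeq2 called 3. In the rod-poor subset none of 12 tested was called by edgeR (2 at an unadjusted p under 0.05) and the median was −0.425. Hspa8 gave −0.60 in S opsin barcodes and −0.79 in rod-rule barcodes. Of 21 endoplasmic reticulum stress genes, Calr (−0.58 ± 0.11) and Hspa5 (−0.54 ± 0.10), both chaperones of that compartment, were called lower. Calr was not called without Control 2, nor Hspa5 without Control 1.

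Cone phototransduction genes gave a median of −0.221, with 2 of 19 called lower and 0 higher. Kcnv2, a potassium channel subunit of photoreceptors, stood at 447 and 483 CPM in Control, against 293 and 347 CPM in Diabetic (log2 −0.61 ± 0.105, edgeR adjusted p = 0.025). Grk1, the opsin kinase, stood at 1027 and 1189 against 709 and 836 CPM (−0.59 ± 0.11, edgeR adjusted p = 0.035). Neither was called without Control 2. Both are expressed by rods too, and in rod-rule barcodes they gave −0.46 and −0.48. Sag, the rod arrestin and the only one of 14 rod markers called, gave −0.54 ± 0.11 in M opsin barcodes and was not called when either Control library was left out. In rod-poor barcodes edgeR called none of Kcnv2, Grk1 and Sag. The cone transducin and channel genes gave Gngt2 −0.27 ± 0.10, Gnb3 −0.33 ± 0.10 and Cngb3 −0.20 ± 0.11, none called. Opn1mw itself stood at 846 and 1103 CPM in Control, against 941 and 944 CPM in Diabetic, within the Control range, though the rule had set its minimum. None of 27 photoreceptor transcription factors was called by edgeR (4 with an unadjusted p under 0.05). Thrb gave −0.07 ± 0.10 and Crx −0.02 ± 0.10.

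Stress and signalling genes gave single calls. Mt1, a metal-binding metallothionein, stood at 37.8 and 28.2 CPM in Control, against 81.9 and 77.2 CPM in Diabetic (log2 1.18 ± 0.14 SE, edgeR adjusted p = 0.0033). The rule that named it requires groups without overlap. DESeq2 gave no adjusted p for Mt1, nor for Junb and Abca1 described next. In the rod-poor subset it stood at 24.9, 31.4, 215 and 151 CPM (log2 2.67, edgeR adjusted p = 0.024). Of 27 oxidative stress genes Mt1 was the one called, and 22 log2 fold changes were positive with a median of 0.26 (0.146 without Diabetic 1). Of 18 immediate early genes Junb, an AP-1 subunit, was called higher at 26.4 and 17.9 against 67.8 and 39.8 CPM (1.21 ± 0.25), and the median was 0.558. Without Control 2 no immediate early gene was called by edgeR (7 at an unadjusted p under 0.05). The median was 0.284 without Control 2 and 0.202 without Diabetic 1. Fos gave 0.18 ± 0.13 and was not called. Slc2a1, the glucose transporter GLUT1, was called among 23 glycolysis genes, at 91.1 and 82.4 against 151 and 124 CPM (0.60 ± 0.12), and it was not called without Control 1, Control 2 or Diabetic 1. Of 16 clock genes Bhlhe41, a repressor of the clock, was called higher (0.48 ± 0.10), and of 20 sterol genes the cholesterol exporter Abca1 was higher (0.875 ± 0.159). Bhlhe41 was not called without Control 1 or without Control 2. Abca1 was not called without Control 2. In rod-poor barcodes edgeR called neither Slc2a1 nor Bhlhe41. The interferon list gave a median of 0.605 over 16 genes, with 0 called by edgeR and 7 at an unadjusted p under 0.05. That median was 0.242 without Control 2 and 0.12 without Diabetic 1. Txnip, which responds to glucose, stood at 5.23 and 1.53 CPM in Control, against 13.1 and 5.36 CPM in Diabetic, and was not called (1.32 ± 0.51, edgeR adjusted p = 0.22).

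Among the remaining named genes, Zc3h6 stood at 30.4 and 43.1 CPM in Control, against 76.0 and 83.5 CPM in Diabetic (log2 1.08 ± 0.15). Selenom (0.80 ± 0.14), A930005G22Rik (0.78 ± 0.105), Gm45716 (0.72 ± 0.12), Pcp4l1 (0.71 ± 0.11), Acat1, the ketone body enzyme (0.69 ± 0.13), A430035B10Rik (0.66 ± 0.105), the histone H3f3b (0.65 ± 0.12), Gramd2 (0.64 ± 0.10), Gm9856 (0.625 ± 0.112) and the synaptic vesicle protein Sv2a (0.62 ± 0.11) were also higher. Rnf123, a ubiquitin ligase, stood at 140 and 143 against 81.3 and 79.2 CPM (−0.88 ± 0.10). Gm43009 (−0.81 ± 0.16), Apela (−0.73 ± 0.15), Mest (−0.72 ± 0.10), Nos3, endothelial nitric oxide synthase (−0.71 ± 0.12), Ndufaf5, a complex I assembly factor (−0.705 ± 0.141), Pdzd8 (−0.70 ± 0.11) and Gckr (−0.66 ± 0.14) were also lower. Rod-rule barcodes of the same libraries gave 1.01 for Zc3h6, −0.89 for Rnf123 and −0.675 for Mest. S opsin barcodes gave 1.07, −0.96 and −0.665. Those comparisons use other barcodes of the same 4 libraries. Without Control 2 the calls of Selenom, Pcp4l1, A430035B10Rik, H3f3b, Gm9856, Sv2a, Gm43009, Apela, Ndufaf5 and Gckr were lost. Without Control 1 those of Gm45716, Acat1, Sv2a, Nos3 and Gckr were lost, and Gckr was also lost without Diabetic 1. DESeq2 called neither Acat1 nor Sv2a. Genes it gave no adjusted p included Selenom, Nos3 and Gckr. In rod-poor barcodes the calls of A930005G22Rik, Pcp4l1, A430035B10Rik, H3f3b, Gm9856, Sv2a, Nos3, Ndufaf5, Pdzd8 and Gckr were lost.

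**Figure D5:**
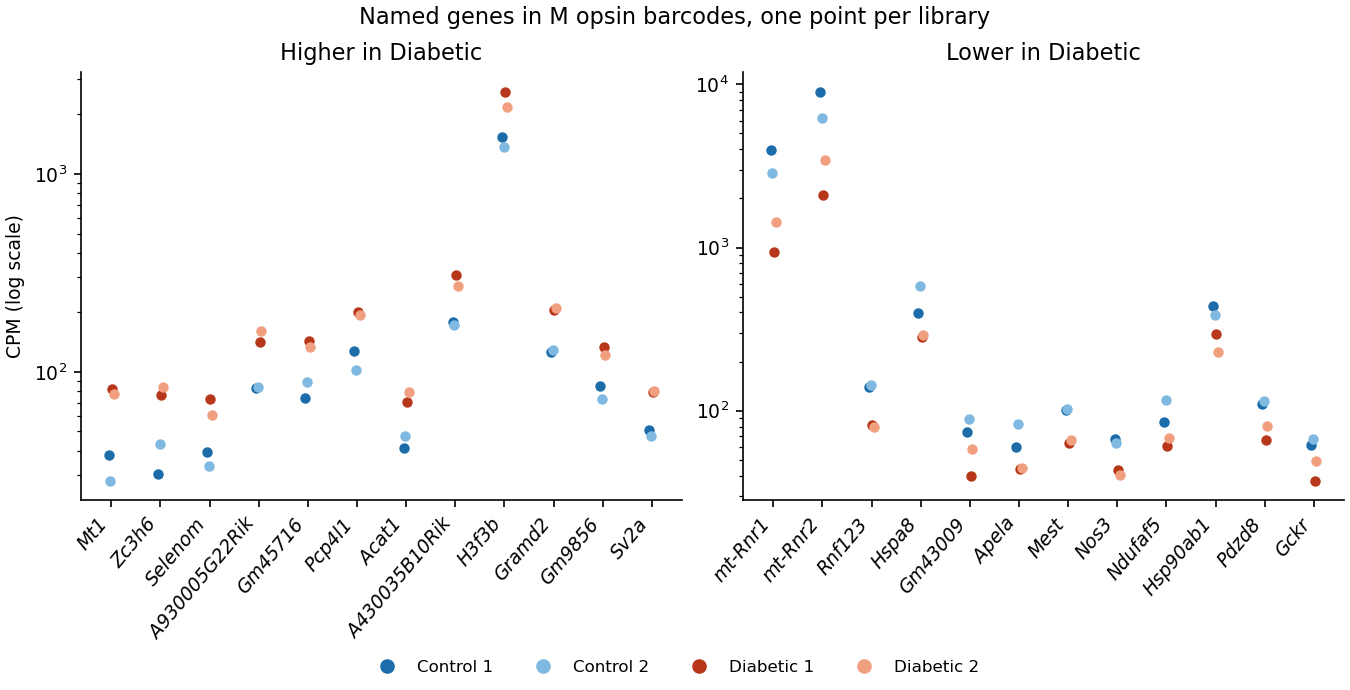
Level in M opsin barcodes in CPM (log y axis) of the 24 named genes, 1 point per library, Control in blue and Diabetic in red. The genes were chosen as called and with groups that do not overlap, so the gap between Control and Diabetic points was set by the choice. Among those lower in Diabetic, mt-Rnr1 and mt-Rnr2 are the farthest apart.

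RNA of other cells moved with the same contrast. The 12 endothelial markers summed to 305 and 132 CPM in Control and to 508 and 262 CPM in Diabetic, which overlapped, and 11 of 11 tested had a positive log2 fold change (median 0.956) with 0 called by edgeR and 5 at an unadjusted p under 0.05. Without Diabetic 1 that median was −0.125, and 8 endothelial markers were called higher without Diabetic 2 and 3 without Control 1. The neutrophil genes S100a8 and S100a9 were called higher, with S100a8 at 0.249 and 0 CPM in Control, against 13.3 and 5.36 CPM in Diabetic, and S100a9 at 0, 0, 18.2 and 6.77 CPM. The 12 microglia and neutrophil markers summed to 14.7 and 16.03 against 56.6 and 33.0 CPM. In rod-rule barcodes they summed to 183 and 162 against 1027 and 1060 CPM. Müller glia markers gave a median of 0.252 with 0 of 14 called by edgeR over all M opsin barcodes (5 at an unadjusted p under 0.05). With Scrublet calls removed 8 of the 14 were called higher and the median was 0.497. Without Diabetic 1, 3 were called, and without Diabetic 2 the median was 0.085. In the rod-poor subset Glul, Apoe and Dkk3 were called higher, with log2 fold changes of 2.48, 2.29 and 2.89. The part of these cells in the Diabetic differences was not tested.

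The Diabetic effect in M opsin barcodes was compared with that in S opsin barcodes by an interaction term. Of 13496 genes, 9 were called (0.0667%), 5 with a more positive (0.037%) and 4 with a more negative effect (0.0296%) in M, and DESeq2 called 0, with 25 at an unadjusted p under 0.05. Gngt2, the cone transducin subunit, stood at 707, 763, 633 and 645 CPM in M and at 577, 690, 751 and 675 CPM in S opsin barcodes (difference of log2 fold changes −0.40 ± 0.07 SE, edgeR adjusted p = 0.00015). Over the 19 cone phototransduction genes tested the median was −0.064, with 6 positive. Gnb3 gave −0.19 ± 0.07 and Cngb3 −0.20 ± 0.12, neither called. The rule's cone genes gave −0.39 (Gnat2), −0.32 (Pde6h), −0.33 (Pde6c) and −0.09 (Arr3), as descriptions. Whether cone RNA content shifted between the kinds was not tested. Tmsb10, an actin-binding thymosin, differed by −0.46 ± 0.07, Dapl1 by −0.64 ± 0.14 and the pericyte marker Rgs5 by 0.83 ± 0.13. In Apoe the difference was −0.35 ± 0.08, and 0.036 once Scrublet calls were removed. Dapl1 and Rgs5 were not called with Scrublet calls removed, nor Gngt2 and Tmsb10 in rod-poor barcodes. Gngt2, Apoe and Dapl1 were not called without Diabetic 2, nor Apoe, Dapl1 and Rgs5 without Control 1. Without Diabetic 1 none of the 9 was called, by edgeR, with 597 genes at an unadjusted p under 0.05, and without Control 2 the count was 33.

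Against rod-rule barcodes 15 of 14944 genes were called (0.1%), 9 with a more positive (0.0602%) and 6 with a more negative effect (0.0401%) in M, and DESeq2 called 5. Gnb3 differed by 0.73 ± 0.13 (edgeR adjusted p = 0.042), falling in rod-rule barcodes from 111 and 92.8 CPM in Control to 55.4 and 48.4 CPM in Diabetic (log2 −1.04 ± 0.10), with −0.33 ± 0.10 in M opsin barcodes. Fos, an AP-1 subunit, stood at 163, 138, 200 and 157 CPM in M opsin barcodes and at 292, 220, 597 and 706 CPM in rod-rule barcodes (difference −1.07 ± 0.16, edgeR adjusted p = 0.017). Egr1, also an early response factor, differed by −0.99 ± 0.155. Gnb3 was not called without Control 1, nor with rod-poor M opsin barcodes only. DESeq2 called neither Gnb3 nor Egr1. When the rod side was limited to barcodes with fewer than 5 UMIs of other cells' markers, an alternative chosen after seeing the data, Fos gave 0.20 and Egr1 0.31, neither called, and Gnb3 gave 1.24 (edgeR adjusted p = 0.0017). Haemoglobin genes were called as well, with Hbb-bs at 14.1 to 30.9 CPM in M opsin and 533 to 1547 CPM in rod-rule barcodes.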

How the data were processed

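Raw UMI counts per gene and barcode for 55357 genes were used as deposited; per the submitters' processing notes the authors used Cell Ranger 7.0.0, STAR 2.7.10b and the mm10 build. The members and gene lists were chosen with earlier results of these data known. Counts were summed over the barcodes of each kind in each library, and levels are counts per 1000000 UMIs of those sums (CPM). Tests used edgeR 4.0.16 in R 4.3.3, with its quasi-likelihood test (two-sided) after TMM scaling and the filterByExpr filter, and Benjamini-Hochberg adjustment over all genes tested, and DESeq2 1.42.0 as an alternative. The M to S contrast had the library as a block. Named genes were a set list of opsin, cone, rod and stress genes, the 12 highest and 12 lowest called genes at 50 CPM or more whose groups did not overlap, up to 4 per gene list, the 8 highest and 8 lowest between M and S, and up to 6 per interaction. Genes described as seen first, and called members of a list below 50 CPM, fall outside this rule. Counts of 11083 genes were simulated for the Diabetic contrast, and only genes with a mean of 50 CPM or more were changed. Of those, 74.6% of genes changed 1.5-fold and 100% of genes changed 2-fold were recovered. Recovery of genes below 50 CPM was not tested. Scrublet ran in scanpy 1.11.5. Doublets stayed in the main values. Of the gene identifiers, 52081 matched GENCODE M21, which gave positions. The rod rule and the split into rod-rich and rod-poor barcodes also used a gene that is not reported here, and single list members were left out likewise.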

Additional observations from a re-analysis of the deposited data

Results flagged for a closer look

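In 8 genes the Diabetic effect differed between M opsin barcodes and another kind of barcode by edgeR's interaction test over 4 libraries. Against S opsin barcodes the difference of log2 fold changes was −0.40 for Gngt2, −0.35 for Apoe, 0.83 for Rgs5, −0.46 for Tmsb10 and −0.64 for Dapl1. DESeq2 called none of these. Dapl1 and Rgs5 were not called with Scrublet calls removed, nor Gngt2 and Tmsb10 in rod-poor barcodes. Rgs5 is a pericyte gene, and it stood at 84.9 and 18.7 CPM in Control M opsin barcodes and 138 and 47.1 CPM in Diabetic ones. Against rod-rule barcodes the difference was 0.73 for Gnb3, −1.07 for Fos and −0.99 for Egr1, and DESeq2 called neither Gnb3 nor Egr1.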

How the results depend on the processing

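For the Diabetic contrast, genes higher and lower numbered 83 and 46, and 383 and 250 with no filter on low counts, 384 and 253 with Scrublet calls removed, and 5 and 2 with rod-poor barcodes only (2416 genes tested). Genes higher numbered 139 without TMM and 17 with DESeq2. Leaving out a library gave 38 to 389 higher and 15 to 288 lower. Between M and S opsin barcodes, DESeq2 called 72 and 39, rod-poor barcodes gave 0 and 2 in edgeR (138 genes at an unadjusted p under 0.05), no filter gave 334 lower, and leaving out a library gave 183 to 219 higher and 110 to 131 lower. The M to S difference in effect gave 15 calls with no filter, 0 with DESeq2 (25 at an unadjusted p under 0.05), 4 with Scrublet calls removed, 15 with a stricter M rule, 1 in rod-poor barcodes, 14 without mitochondrial genes and 0 to 33 with a library left out. The M to rod difference gave 25 without TMM, 96 with no filter, 5 with DESeq2, 155 with Scrublet calls removed, 24 with the stricter rule, 34 with rod-poor barcodes and 19 to 161 with a library left out. The M share difference ranged from 0.53 to 13.4 points with a library left out. In rod-poor barcodes the sign turned for mt-Nd2 (0.097), Calr (0.033), Hspa5 (0.001), Lrtm1 (−0.225), Rd3l (−0.026), Apoe (1.286), Dapl1 (2.245) and Fos (0.757). It turned for Apoe with Scrublet calls removed (0.036), and for Fos (0.197) and Egr1 (0.309) against cleaner rods. The cause was not tested, beyond the smaller number of genes or libraries in those fits.

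With the replicate number as a block, the Diabetic contrast gave 686 higher and 588 lower. Deviations of same-numbered libraries correlated at r = 0.32 over 3916 genes, with only 2 pairs, and the labels tie the numbers to nothing shared. A screen for barcodes without other cells' markers was not run, since at most 1 M opsin barcode per library passed. The rod-poor M opsin barcodes held 95566 to 121007 UMIs per library and the rod-poor S opsin barcodes 36046 to 129238, which limits what could be tested in them.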
